A study of Homo sapiens with 4 samples.

Results

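Expression of 10 genes that control the G1 phase of the cell cycle was followed in K562 human erythroleukemia cells treated for 4 h with AC-1041, an analog of thalidomide. The genes were the D-type cyclins CCND1, CCND2 and CCND3, the E-type cyclin CCNE1, the kinases CDK2, CDK4 and CDK6, the kinase inhibitor CDKN1B (p27), the retinoblastoma gene RB1 and the transcription factor gene E2F1. They were taken by name from the gene probes of the array, and each had 1 probe, giving 10 of 14297 gene probes. RNA of treated and of control K562 cells was labelled with different dyes and hybridised together on each of 4 Agilent arrays, so every array gave 1 ratio of treated to control. Arrays 1 and 2 had the treated RNA labelled with Cy5, and arrays 3 and 4 had it labelled with Cy3. The labels call the control cells untreated, whereas the methods describe a DMSO control, and the labels give no dose. K562 was the single cell line on these arrays. The methods say that samples were collected in quadruplicate, but neither they nor the labels say which sample went on which array or whether the samples were separate cultures. The p-values therefore measure only the spread between these arrays, which may be technical.

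Progress through G1 depends on D-type cyclins, which bind CDK4 and CDK6 and start the phosphorylation of the retinoblastoma protein. Cyclin E with CDK2 completes it, which releases E2F factors to switch on the genes of DNA replication, and p27 holds cyclin E-CDK2 in check. Cyclin D1 mRNA and protein are both short-lived, and in many cell types their level follows growth signals and stress.

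The ratios of the D-type cyclins and of CDKN1B are read through the following probes, of which the first 30 of 60 bases are shown 5′ to 3′ as the array files give them, because these are the 4 genes whose values the results turn on. No base is capitalized, since no motif is marked.
CCND1: gctctattccaaaaaggttgctgtttcaca
CCND2: aaggtcctacgaaaacggaataataaaaag
CCND3: atttaatgcatgatagacacatatgagggg
CDKN1B: agcacacttgtaggataagtgaaatggata
On hg18, the build of the files, the CCND1 probe lies on the plus strand at chr11:69177414-69177473. The CCND2 probe lies at chr12:4279592-4279651 on the plus strand, the CCND3 probe at chr6:42011171-42011230 on the minus strand and the CDKN1B probe at chr12:12766207-12766266 on the plus strand. No annotation of that build was used here, so their exon and UTR positions are not given. The longest run of bases shared by any pair of the full D-type cyclin probes was 6 bases. The G and C content of the 10 member probes ran from 35.0% to 53.3%, with the lowest value in both CCND2 and CDKN1B. The transcript accessions of all 10 probes led to the same symbols in the RefSeq table.

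Each array held 14297 gene probes and 536 control spots, none of them saturated, and from 5941 to 9515 probes per channel stood well above background. The SD of the 77 negative control spots was from 226 to 308 on arrays 1 and 2 and from 27.8 to 40.5 on arrays 3 and 4. Over the probes tested, the log2 ratios of arrays 1 and 2 correlated with r = 0.81 and those of arrays 3 and 4 with r = 0.94, whereas pairs of opposite dye orientation gave r from -0.28 to -0.11. Dye orientation and background width therefore moved together and cannot be told apart. Of 10 erythroid marker genes, 8 were well above background in all 8 channels and 0 in no channel. Of 8 markers of other blood and tissue cells, 4 were above background in no channel.

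After the normalization used here, CCND1 was the single one of the 10 G1 control genes whose ratio lay below 0 on all 4 arrays. No gene lay above 0 on all 4. Among the 8852 probes tested, 8.65% lay below 0 and 14.7% above 0 on all 4 arrays. On arrays 1 and 2 CCND1 was not well above background in either channel. In the deposited Feature Extraction ratios, CCND3 lay below 0 on all 4 arrays, and CCND1 was at 0 on array 2. In the limma fit with a treatment and a dye term, 3 of the 10 genes passed an adjusted p of 0.05 (Benjamini-Hochberg over all probes tested). CCND1 and CCND3 were lower and CDKN1B was higher in treated cells. Over all probes, 36.3% were called, 23.2% higher and 13.1% lower, so 3 of 10 was close to the share over all probes. The median log2 ratio was 0.01 for the 10 genes and 0.01 for all probes tested. The dye term passed the same threshold for 4 of the 10 genes, CCND2, CCND3, CDK2 and CDKN1B, and for 57.5% of all probes. In this fit any gap between the orientations goes into the dye term, so that standard errors and adjusted p-values come from the spread within an orientation. The SD given with each mean is that of all 4 arrays.

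**Figure D1:**
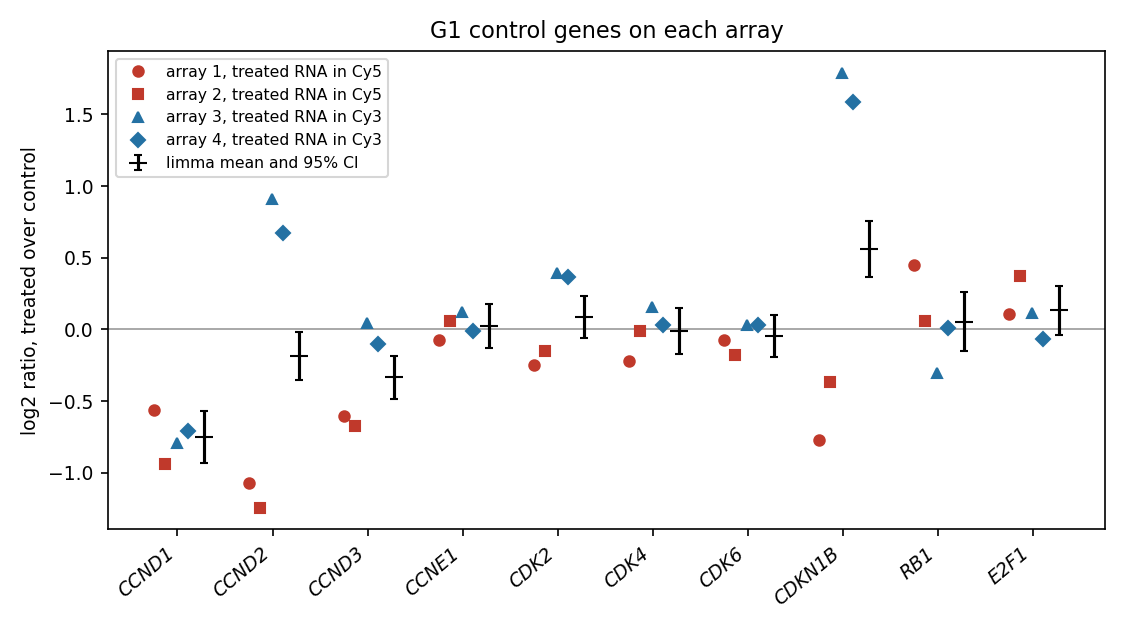
Log2 ratio of treated to control (y axis) of the 10 G1 control genes (x axis) on each of the 4 arrays, in red for arrays with treated RNA in Cy5 and in blue for arrays with it in Cy3; black marks are the limma mean with its 95% confidence interval. The 4 CCND1 points lie together between -0.94 and -0.56, whereas the red and blue points of CCND2 and CDKN1B lie on opposite sides of 0.

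CCND1, the cyclin that links growth signals to CDK4 and CDK6, was called lower after AC-1041, on a dim probe. With treated RNA in Cy5 its log2 ratio of treated to control was -0.56 (array 1) and -0.94 (array 2), and with treated RNA in Cy3 it was -0.79 (array 3) and -0.71 (array 4). All 4 arrays showed less CCND1 signal in the treated channel. The mean log2 ratio was -0.75 ± 0.16 (SD, n = 4 arrays), with a 95% confidence interval from -0.93 to -0.57 and an adjusted p of 0.000398 in limma. On the Cy5 arrays neither CCND1 spot was well above background, so their mean of -0.75 is not a second measurement of the mean of -0.75 on the Cy3 arrays, and the SD, interval and adjusted p over 4 arrays rest in part on it. The exact sign-flip permutation test of CCND1 over 4 arrays (two-sided) gave p = 0.125, the smallest that 4 arrays allow.

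The CCND1 signal was dim. Its spot intensity was 336 in treated and 522 in control RNA on array 1, and 232 and 350 on array 2. On array 3 the treated intensity was 244 and the control intensity 367, and on array 4 they were 235 and 375. The control spot was brighter each time, before any correction. The control spot of CCND1 passed as well above background on arrays 3 and 4, and the treated spot did so on array 4 alone. The probe thus entered the fit through its control channel, the higher one; with no filter on dim probes the adjusted p was 0.000265. On arrays 3 and 4 its intensity exceeded that of 98.7% of the negative control spots in the treated channel and 100% in the control channel. On array 1 it exceeded 70.1% of them in each channel, and on array 2 it exceeded 53.2% and 58.4%. The ratios of arrays 1 and 2 were therefore measured within the range of the negative controls, and on arrays 3 and 4, where CCND1 stood above nearly all of them, the mean log2 ratio was -0.75. With the background taken from the negative control spots, an alternative chosen after seeing the data, the log2 ratio was -0.63 (adjusted p = 0.000724 in limma). With no dye term in the fit it was -0.75 with an adjusted p of 0.0706.

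**Figure D2:**
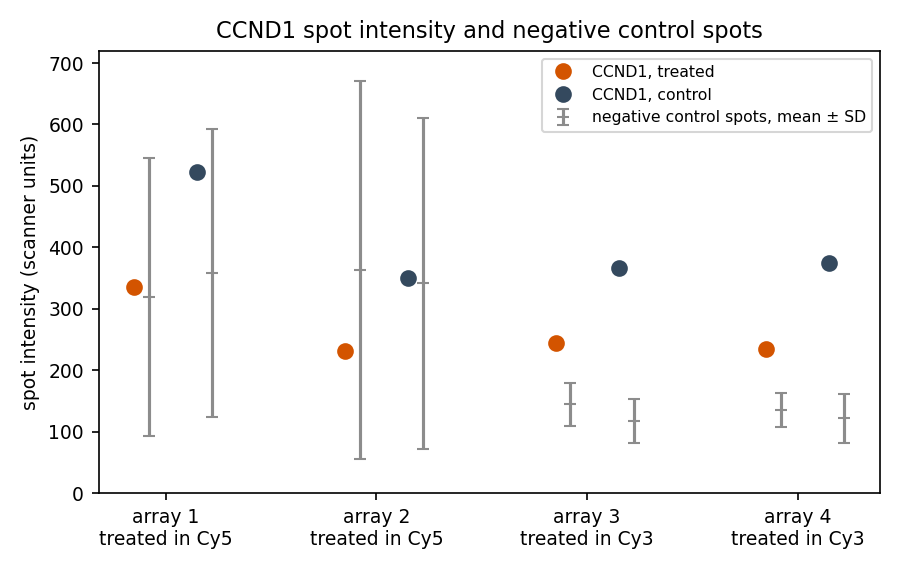
Spot intensity of CCND1 in scanner units (y axis) in the treated (orange) and control (dark) channel of each array (x axis), beside the mean and SD of the 77 negative control spots in the same channel (grey bars). The control value is the higher on all 4 arrays; on arrays 3 and 4 both values stand above the grey bars, and on arrays 1 and 2 they lie within them.

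CCND2, a D-type cyclin with known roles in lymphoid cells and gonads, had ratios that followed the dye. Its log2 ratio was -1.07 and -1.24 on arrays 1 and 2, and 0.91 and 0.68 on arrays 3 and 4. The Cy3 channel was the brighter on all 4 arrays, whichever RNA it carried. The mean log2 ratio of -0.18 ± 1.13 (SD, n = 4 arrays) had an adjusted p of 0.0825 in limma, and the dye term had an adjusted p of 5.1e-05. CCND2 was well above background in all 8 channels. In the fit without array 1 the mean was -0.23 (adjusted p = 0.019), and with the background from negative control spots it was -0.26 (adjusted p = 0.0331).

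CCND3, a D-type cyclin with known roles in blood cell development, was called lower in treated cells, with a size that differed between the orientations. In the deposited Feature Extraction ratios its log2 ratio was -0.42, -0.53, -0.21 and -0.22 on arrays 1 to 4. After the normalization used here it was -0.61 and -0.67 on the Cy5 arrays 1 and 2, and 0.05 and -0.10 on the Cy3 arrays 3 and 4. The Cy5 arrays stood clearly below 0 with a mean of -0.64, and the Cy3 arrays lay near 0 with a mean of -0.03. The mean over all arrays was -0.33 ± 0.36 (SD, n = 4 arrays), with a 95% confidence interval from -0.48 to -0.18 and an adjusted p of 0.00614 in limma. Without array 4 the adjusted p was 0.0959, with a mean of -0.30.

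The CCND1 ratio was also set against those of the other D-type cyclins on the same array. The log2 ratio of CCND1 minus that of CCND2 was 0.51 and 0.30 on the Cy5 arrays and -1.70 and -1.39 on the Cy3 arrays, with a mean of -0.57 ± 1.14 (SD, n = 4 arrays). CCND1 minus CCND3 was 0.04, -0.27, -0.84 and -0.61 in the order of the arrays, with a mean of -0.42 ± 0.39. CCND1 was the lower of the pair on 2 of 4 arrays against CCND2 and on 3 of 4 against CCND3. No test is given for these differences, since a sign-flip test over 4 arrays cannot go below 0.125. The CCND1 values of arrays 1 and 2 in them were not above background.

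**Figure D3:**
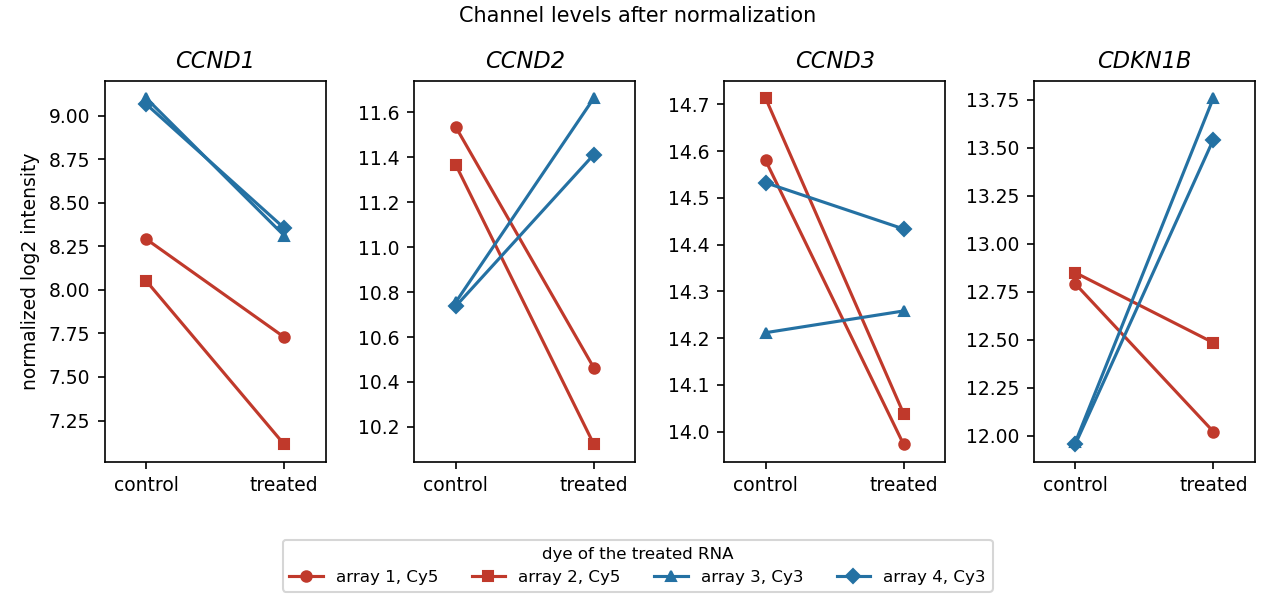
Normalized log2 intensity (y axis) of CCND1, CCND2, CCND3 and CDKN1B in control and treated RNA (x axis), with 1 line per array, red for treated RNA in Cy5 and blue for treated RNA in Cy3; each panel has its own scale. All 4 CCND1 lines go down, while the red and blue lines of CCND2 and CDKN1B cross.

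CCNE1, which drives CDK2 at the end of G1, had log2 ratios of -0.07, 0.06, 0.12 and -0.01 on arrays 1 to 4. The 4 arrays straddled 0 within a narrow range, and the mean was 0.03 ± 0.08 (SD, n = 4 arrays), with a 95% confidence interval from -0.13 to 0.18 (adjusted p = 0.795 in limma). CDK2, its kinase partner, had log2 ratios of -0.25 and -0.15 on the Cy5 arrays and 0.39 and 0.37 on the Cy3 arrays. After normalization the Cy3 channel was the brighter on all 4 arrays, and the mean of 0.09 ± 0.34 did not pass the threshold (adjusted p = 0.307), while the dye term did (adjusted p = 0.00563).

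Both kinase genes that partner the D-type cyclins had mean ratios near 0. CDK4 gave log2 ratios of -0.22, -0.01, 0.16 and 0.03 on arrays 1 to 4, a mean of -0.01 ± 0.16 (SD, n = 4 arrays) and a 95% confidence interval from -0.17 to 0.15 (adjusted p = 0.927 in limma). CDK6 gave -0.08, -0.18, 0.03 and 0.03, a mean of -0.05 ± 0.10 and an interval from -0.19 to 0.10 (adjusted p = 0.588). After normalization the Cy3 channel was the brighter on all 4 arrays for both genes. Neither dye term passed the threshold (adjusted p = 0.232 for CDK4 and 0.307 for CDK6 in limma). CDK4 was bright in every channel, whereas CDK6 was well above background on arrays 3 and 4 alone. The CDK6 probe spans an intron, with its ends at chr7:92090309-92138707 on hg18.

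CDKN1B, whose product p27 binds and inhibits cyclin E-CDK2, passed the threshold with opposite directions in the 2 orientations. Its log2 ratio was -0.77 and -0.36 on arrays 1 and 2, and 1.79 and 1.59 on arrays 3 and 4. The groups of arrays did not overlap, with a mean of -0.57 for treated RNA in Cy5 and 1.69 for treated RNA in Cy3. The mean over all arrays was 0.56 ± 1.32 (SD, n = 4 arrays), a ratio of 1.48, with an adjusted p of 0.00194 in limma and a dye term whose adjusted p was 5.4e-05. With no dye term the adjusted p was 0.699. The Cy3 channel was the brighter on all 4 arrays after normalization.

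RB1, the pocket protein gene that the cyclin D kinases act on, had log2 ratios of 0.45, 0.06, -0.30 and 0.01 on arrays 1 to 4. The arrays lay on both sides of 0, the mean was 0.05 ± 0.31 (SD, n = 4 arrays) and the adjusted p was 0.662 in limma. It was dim too, being well above background on 3 arrays in treated and on 2 arrays in control RNA. With signals processed by Feature Extraction its log2 ratio was 0.51 (adjusted p = 0.0409), and the sign changed when array 1 or array 4 was left out. Its probe spans an intron, from 47832236 to 47834982 on chromosome 13 of hg18.

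E2F1, the factor set free when the retinoblastoma protein is phosphorylated, had log2 ratios of 0.11, 0.37, 0.12 and -0.07 on arrays 1 to 4. It was above 0 on 3 of 4 arrays, with a mean of 0.13 ± 0.18 (SD, n = 4 arrays), a 95% confidence interval from -0.04 to 0.30 and an adjusted p of 0.2 in limma. Without array 1 the mean was 0.20 (adjusted p = 0.0383).

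**Figure D4:**
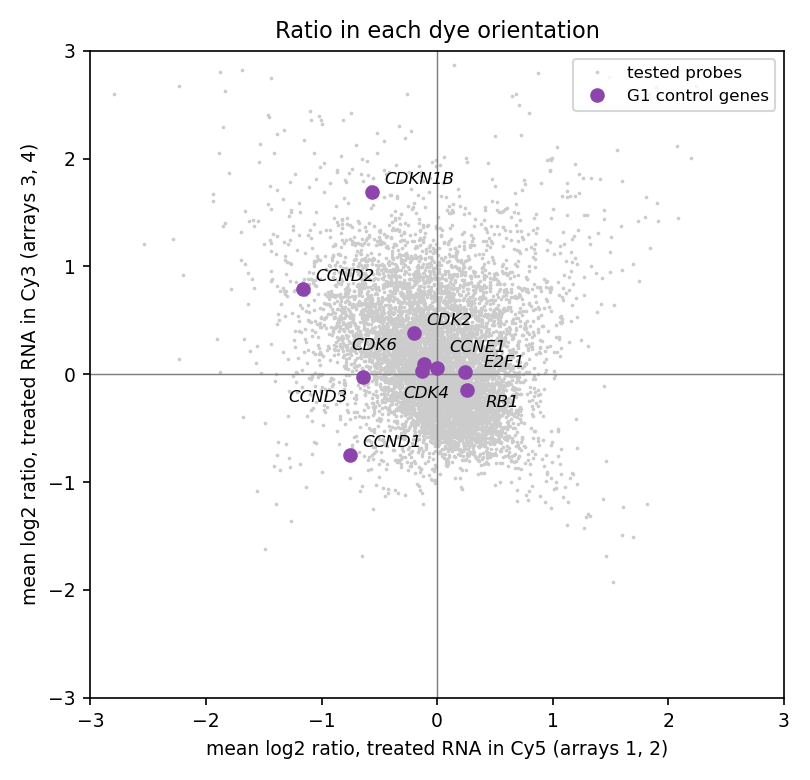
Mean log2 ratio of treated to control on arrays 1 and 2 (x axis, treated RNA in Cy5) against that on arrays 3 and 4 (y axis, treated RNA in Cy3), for tested probes in grey and the 10 G1 control genes in purple; 3 probes fall outside the axes. CCND1 is the purple point at lower left, at -0.75 on both axes. CCND2, CDK2 and CDKN1B lie to the left of 0 on the x axis and above 0 on the y axis. CDK4, CDK6 and CCNE1 lie on the same sides, nearer to the centre.

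E2F1 is known to be under the control of E2F factors itself. Promoters (250 bases before to 50 after the start of the gene, GRCh38.p14, RefSeq) were at hand for 7 of the 10 genes and were searched on both strands for the E2F motifs TTTCCCGC, TTTGGCGC, TTTCGCGC and TTTGCCGC, which may overlap one another. E2F1 alone of the 7 genes held any, and 3.99% of all 27305 genes with a promoter here did. Its promoter, chr20:33686336-33686635 on the minus strand, is shown 5′ to 3′ because the RB1 and E2F1 results bear on this loop, with the 2 matches in capitals.
E2F1: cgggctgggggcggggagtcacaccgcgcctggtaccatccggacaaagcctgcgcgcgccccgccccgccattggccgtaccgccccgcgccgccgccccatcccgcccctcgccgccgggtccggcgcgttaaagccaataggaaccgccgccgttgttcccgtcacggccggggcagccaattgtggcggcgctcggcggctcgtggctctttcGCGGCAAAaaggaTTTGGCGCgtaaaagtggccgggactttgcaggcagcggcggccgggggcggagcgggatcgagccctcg
A match is a description of the letters and not a binding site. Over the probes tested whose gene had a promoter here, the median log2 ratio was 0.02 for the 398 with a motif and 0.01 for the 5686 without. Of the former 25.1% were called higher and 10.3% lower, and of the latter 24.0% and 13.1%.

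Of 26 S phase genes that E2F factors are known to switch on, 5 rose and 3 fell after AC-1041. This was a share of 30.8% called against 36.3% of all probes, and their median log2 ratio was 0.04. An E2F motif was found for 14 of the 23 with a promoter here. FEN1, the flap endonuclease of DNA replication, fell with a log2 ratio of -0.36 ± 0.25 (SD, n = 4 arrays, limma adjusted p = 0.00438). RRM2, the small subunit of ribonucleotide reductase, fell with -0.33 ± 0.18 (adjusted p = 0.00968), and ORC1, a subunit of the origin recognition complex, rose with 0.35 ± 0.25 (adjusted p = 0.0187). These 3 were the called genes with the same direction on all 4 arrays. Without array 3, and likewise without array 4, 0 of the list rose and 0 fell, and the adjusted p of these 3 genes then lay between 0.0531 and 0.131. Without array 2, 2 genes rose.

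Other CDK inhibitors did not move one way. Of 6 genes, 3 could be tested, and all 3 passed the threshold, 2 higher and 1 lower, where 36.3% of all probes did. CDKN1C (p57) fell with log2 ratios of -1.43, -1.10, -0.05 and -0.30 on arrays 1 to 4, a mean of -0.72 ± 0.65 (SD, adjusted p = 0.000528 in limma). CDKN2D (p19), an inhibitor of CDK4 and CDK6, rose with 0.28, 0.37, 0.48 and 0.62, a mean of 0.44 ± 0.15 (adjusted p = 0.00185). CDKN2A was called higher with 0.47 ± 0.54, at 0.93 on both Cy5 arrays and -0.07 and 0.09 on the Cy3 arrays. K562 cells are known to have lost this gene, and what RNA its probe measured was not tested, so its call may not be one of a CDK inhibitor. CDKN1A and CDKN2C were bright but had marked spots on arrays 1 and 3, and CDKN2B was too dim on all arrays. The remaining log2 ratios, on arrays 2 and 4, were 1.17 and 0.08 for CDKN1A, and 0.58 and 0.38 for CDKN2C.

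Among the pocket proteins other than RB1 and the E2F and DP factors other than E2F1, 4 of 10 genes tested rose and 3 fell, against 23.2% and 13.1% of all probes, and the median log2 ratio was 0.13. E2F7, a repressor of E2F target genes, rose with log2 ratios of 0.38, 0.62, 0.92 and 1.14 on arrays 1 to 4, a mean of 0.76 ± 0.34 (SD, adjusted p = 0.000296 in limma). The pocket protein genes RBL2 (p130) and RBL1 (p107) rose with means of 0.49 ± 0.22 (adjusted p = 0.00154) and 0.22 ± 0.07 (adjusted p = 0.0294). TFDP1 and TFDP2, whose products pair with E2F factors, fell with means of -0.28 ± 0.24 (adjusted p = 0.0258) and -0.21 ± 0.17 (adjusted p = 0.0339). Of the 7 genes called, these 5 had the same direction on all 4 arrays. Without array 3 or without array 4, 2 genes rose and 0 fell, so that RBL1, TFDP1 and TFDP2 lost their calls. With median centring TFDP1 (-0.15) and TFDP2 (-0.08) did not pass either.

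Of 9 other G1 and S cyclins, kinases and activators tested, 1 rose and 0 fell at the adjusted threshold. This was a share of 11.1% called against 36.3% of all probes. CDK7, the kinase that activates other CDKs, rose with log2 ratios of 0.67, 0.74, 0.48 and 0.67, a mean of 0.64 ± 0.11 (SD, n = 4 arrays, limma adjusted p = 0.000387). Of 9 genes for the turnover of p27 and G1 cyclins, 4 fell and 1 rose, where 13.1% and 23.2% of all probes did. Only 2 of the 5 called, CUL1 and FBXO31, had the same direction on all 4 arrays. CUL1, the scaffold of SCF ubiquitin ligases, fell with -0.28 ± 0.12 (adjusted p = 0.0155), and FBXO31, an F-box protein known for cyclin D1 breakdown after DNA damage, fell with -0.23 ± 0.22 (adjusted p = 0.0297). Of 20 mitosis genes, 4 rose and 2 fell, where 23.2% and 13.1% of all probes did. CDC25C, the phosphatase of mitotic entry, was the one with the same direction on all 4 arrays, at 0.65 ± 0.09 (adjusted p = 0.000391). CUL1 and FBXO31 lost their calls without array 3 or array 4, with 1 turnover gene lower without the former and 0 without the latter, and 1 mitosis gene then rose and 0 fell. Without array 1, 3 of the other G1 and S genes and 2 turnover genes were higher, and without array 2, 2 mitosis genes were. FBXO31 also did not pass without array 2 (adjusted p = 0.0559).

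**Figure D5:**
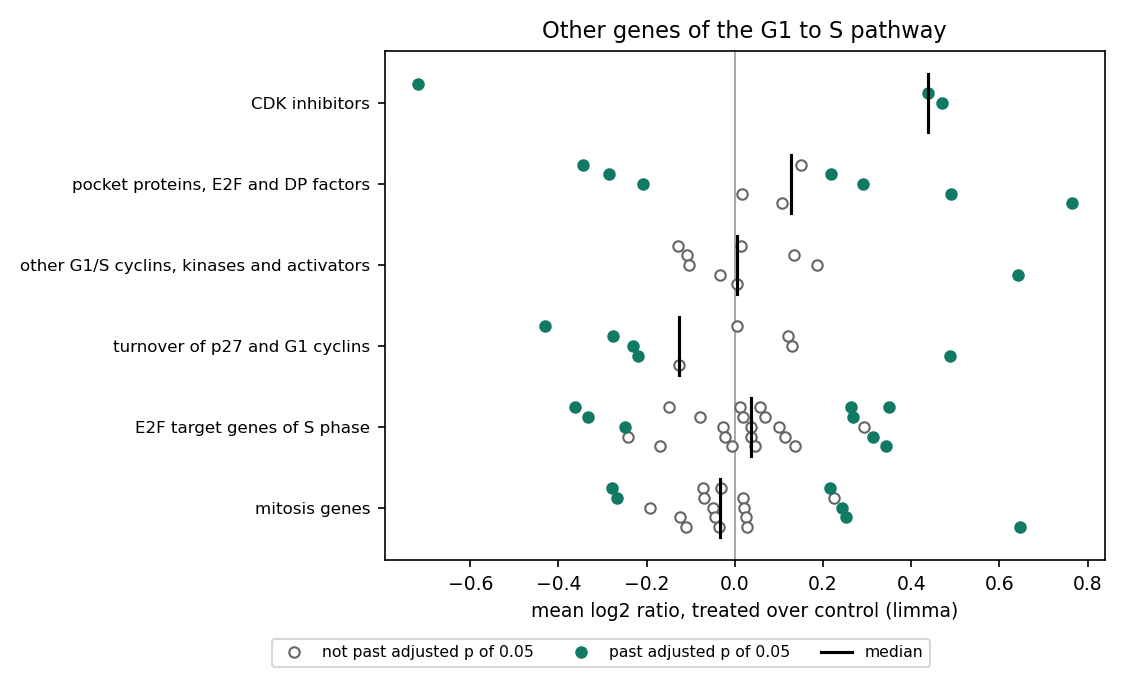
Mean log2 ratio of treated to control from limma (x axis) for the tested genes of 6 lists of cell cycle genes (y axis, 1 row per list), filled where the adjusted p was under 0.05, with the median of each list as a black bar; vertical spread within a row only separates points. Called genes lie on both sides of 0 in every list but the other G1/S cyclins, kinases and activators, where CDK7 at 0.64 is the single filled point.

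Since CCND1 was not above background on arrays 1 and 2, likeness to its ratios there is likeness to values within the background. The tested probes nearest to CCND1 over the 4 arrays, by the root mean square difference of their log2 ratios among 7981 probes with 4 values, belonged to GLYATL1 (0.091), TMEM177 (0.135), EGLN3 (0.141), AGPAT5 (0.144) and SNORD22 (0.145). All 5 lay below 0 on all 4 arrays, with mean log2 ratios from -0.76 to -0.66, which follows from their being picked for closeness to CCND1. EGLN3, a prolyl hydroxylase that acts on hypoxia-inducible factors, was well above background in all channels, as were TMEM177, AGPAT5 and SNORD22.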

How the data were processed

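Total RNA of treated and control K562 cells was amplified, labelled with Cy5 or Cy3 and hybridised to two-colour Agilent arrays. The authors deposited scanner output that, per the file headers, came from Feature Extraction 9.5.1.1. It gives raw spot intensity and local background for both dyes, processed intensity, and a log10 ratio (red over green). A deposited table of the series holds log10 ratios that match the latter, turned to treated over control, within 0.001 for 99.9% to 100% of values, and its column medians are 0.

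Here, background was corrected with normexp (offset 50). After control spots had been removed, loess (span 0.3) was applied within arrays. Marked spots (non-uniform or population outliers, from 1.57% to 8.08% per array) were left out. Probes had to be well above background in 1 channel or both on 2 or more arrays. Both orientations had to be measured, with a marked spot on no more than 1 array. limma 3.58.1 (R 4.3.3) fitted treatment and dye, and p-values were adjusted by Benjamini-Hochberg. The fit was tested on simulated data. Folds are on the log2 scale after normexp, which understates changes of dim probes. The number of arrays limits the precision. Slide and scan date were the same for all 4 arrays and could not be fitted as blocks.

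The members and lists were chosen with earlier results of these data known. The text names every member, up to 5 genes per list with the largest changes among those past the threshold and in the same direction on all 4 arrays, and the 5 probes nearest CCND1. CDKN2A, CDKN1A, CDKN2B and CDKN2C were named after their values were seen. Some results are not reported here. Alternatives varied the background correction, signal source, normalization, filter, dye term, prior, array weights, marked spots, threshold and arrays.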

Additional observations from a re-analysis of the deposited data

Results flagged for a closer look

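For 3 G1 control genes the dye term passed the threshold, with both arrays of 1 orientation below 0 and both of the other above 0. CDK4 and CDK6 had the same split of signs, but their dye terms did not pass (adjusted p = 0.232 and 0.307 in limma). The mean log2 ratio with treated RNA in Cy5 minus that with it in Cy3 was -1.95 for CCND2, -0.58 for CDK2 and -2.26 for CDKN1B. The dye term of the limma fit, which tests this difference, had an adjusted p of 5.1e-05 for CCND2, 0.00563 for CDK2 and 5.4e-05 for CDKN1B. It passed the threshold for 57.5% of all probes tested. The orientation also separates the arrays with wide and narrow background, so the dye and the background cannot be told apart.

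A single array stood apart from the other 3 for 2 of the 33 genes looked at. ORC1 was at 0.72 on array 2 and between 0.18 and 0.26 on the others, so the gap was 0.855 of the range, above the critical value of 0.829 for 4 values. TMEM177 was at -0.76 on array 2 and between -0.64 and -0.62 on the others, a gap of 0.896 of the range. Many of the 33 genes were picked for the same direction on all 4 arrays or for closeness to CCND1, and the arrays fall into 2 dye orientations. The share of such gaps that chance would give among them is therefore not known.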

How the results depend on the processing

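The CCND1 ratio kept its direction under all 17 alternatives and its side of the threshold under 16. Many of these could not change the direction. Those that varied only the filter, dye term, prior, array weights, marked spots, threshold or pairing of arrays left the log2 ratio at -0.75. With all 4 ratios below 0, leaving out 1 array could not change the sign either. With no dye term the adjusted p in limma was 0.0706. The CCND1 log2 ratio varied under the other alternatives. It was from -0.85 to -0.66 with an array left out, -1.06 (adjusted p = 0.0358) with signals processed by Feature Extraction, where array 2 gave 0.00, and -1.04 (adjusted p = 0.0478) with the series table. CCND1 was removed by the strictest filter, which asks for both channels of every array well above background. The sign changed for CCNE1 (-0.0077 without array 2 and -0.0076 without array 3, in a range up to 0.0584), CDK4 (0.0426 without array 1 and 0.0227 without array 4, in a range down to -0.0622), RB1 (-0.0422 without array 1 and -0.0234 without array 4, in a range up to 0.151) and CDK6 (0.0112 with the series table).

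With no dye term, limma called 0 of the 10 G1 control genes and 0 of 77 genes in the 6 lists in either direction, and 50 probes higher and 4 lower in all; at an unadjusted p under 0.05 it had 1 of the 10 lower, 6 list genes higher and 4 lower, and 905 and 355 of all probes. With Feature Extraction signals and equally with the series table, 2 G1 control genes were higher, and 1 E2F target, 2 mitosis genes were higher, and 2 turnover genes and 1 mitosis gene lower. With median centring, 2 of the other G1/S genes, 2 turnover genes and 3 E2F targets were higher, and 0 pocket, E2F and DP genes, 2 turnover genes and 0 mitosis genes lower. Over all probes it gave 2286 higher and 589 lower, so that 79.5% of calls were higher in place of 63.9%. Under the strictest filter, 1274 were higher in all, 2 of the other G1/S genes were higher and 1 G1 control gene was lower. The other G1/S genes also had 2 higher without background subtraction and with an intensity-dependent prior. With marked spots kept, 4 CDK inhibitors were higher. At a threshold of 0.01 on the adjusted p there were 1245 higher and 452 lower, with 2 pocket, E2F and DP genes, 0 E2F targets and 1 mitosis gene higher, and 0 pocket, E2F and DP genes, 1 turnover gene and 0 mitosis genes lower. Mitosis genes lower numbered 1 with array weights and with either averaging of arrays as pairs, and 1 was higher with the background from negative control spots.

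With 1 array left out, 1 to 2 G1 control genes were higher and 1 to 3 lower, against 827 to 2629 and 217 to 1513 of all probes. Counts higher and lower were 2 to 2 and 1 to 1 for CDK inhibitors, 2 to 5 and 0 to 3 for pocket, E2F and DP genes, 1 to 3 and 0 to 1 for other G1/S genes, 1 to 2 and 0 to 4 for turnover genes, 0 to 6 and 0 to 4 for E2F targets, and 1 to 5 and 0 to 3 for mitosis genes. The lowest counts over all probes came without array 3 or 4. Leaving out any array leaves an orientation with a single array, whose spread is assumed like that of the other. Without array 3 or 4 the spread came from arrays 1 and 2 alone. The cause of the low counts was not tested. No paired analysis was possible because each array already pairs treated and control RNA and the labels give 1 group.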

Other observations

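CDKN2A is known as a gene that K562 cells have lost, and its neighbour CDKN2B lies in the same deletion. The CDKN2A probe, at chr9:21958039-21958098 on the minus strand of hg18, was nonetheless well above background in all 8 channels, with intensities from 1542 to 5642. The CDKN2B probe was above background in no channel, with intensities from 131 to 408. What RNA the CDKN2A probe measured was not tested.

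Among the erythroid markers, 5 of 10 were called lower and 1 was called higher, against 13.1% and 23.2% of all probes; the list's median log2 ratio was -0.22. The erythroid transcription factor genes GATA1 and KLF1 lay below 0 on all 4 arrays, with means of -0.56 ± 0.30 and -0.70 ± 0.51 (SD, n = 4 arrays, limma adjusted p = 0.000821 and 0.000549). EPOR, the erythropoietin receptor gene, rose with 0.22 ± 0.07 (adjusted p = 0.0296). EPOR did not pass without array 3 (adjusted p = 0.148) or without array 4 (adjusted p = 0.197).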
